A study of Homo sapiens with 16 samples.

Results

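The response to the SUMO inhibitor TAK-981 was compared between MM1S and MM1R, a pair of human multiple myeloma cell lines. For each gene the line difference was the log2 change from vehicle to TAK-981 in MM1R minus the same change in MM1S, so a positive value means a higher response in MM1R, either a larger rise or a smaller fall. All genes with enough reads were members, which gave 14215 genes tested of 23354 in the table, and the comparison used 8 of the 16 libraries. The 4 groups compared, with 2 libraries each, were MM1S vehicle, MM1S after 48 h in 0.1 μM TAK-981, MM1R vehicle and MM1R after the same exposure. The other 8 libraries were MM1S and MM1R under 1 μM dexamethasone (Dex), a glucocorticoid, or under Dex with TAK-981 (combo), also for 48 h. MM1S is sensitive to Dex and is the parental counterpart of the resistant MM1R line, so the comparison holds 1 line of each kind, and resistance to Dex cannot be told apart from any other difference between the lines. Total RNA of the cultured cells was sequenced after removal of ribosomal RNA, and nothing in the labels says whether duplicates came from separate cultures, so p-values measure only the spread between these samples.

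SUMOylation attaches a small ubiquitin-like protein to lysines of target proteins through an E1 enzyme (SAE1 with UBA2), an E2 enzyme and E3 ligases. TAK-981 blocks the E1 step. SUMO is known to restrain the type I interferon response, in which interferon binds its receptor, JAK kinases phosphorylate STAT proteins, and STAT and IRF factors turn on antiviral genes. SUMO is also needed for orderly DNA replication and chromosome segregation.

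The 8 libraries held between 18987739 and 24796539 counts (median 20179437). The MM1S TAK-981 duplicates were furthest apart of all 8 groups, with a median absolute difference of 0.187 log2 over genes against 0.0881 in MM1S vehicle, 0.0670 in MM1R vehicle and 0.0809 in MM1R TAK-981. Plasma cell markers summed to between 7366 and 10547 CPM, counts per 1000000 reads of the library, across the 8 libraries. The 19 markers of T cells, myeloid, erythroid, epithelial, stromal and endothelial cells summed to 33.2 to 34.4 CPM in MM1S vehicle, 53.9 to 54.6 in MM1S TAK-981, 28.4 to 28.9 in MM1R vehicle and 48.2 to 49 in MM1R TAK-981. These sums were higher after TAK-981 in both lines, 2 of the markers were at 0 in all 8 libraries, and their part in the results was not tested.

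The genes changed by TAK-981 overlapped between the lines and nearly always moved in the same direction. In MM1S 6960 genes passed the test (edgeR quasi-likelihood, adjusted p under 0.05), which is 49% of those tested, with 25.2% higher and 23.7% lower. In MM1R 7592 passed (53.4%), with 25.8% higher and 27.6% lower. In both lines 5218 genes were called, 75% of the MM1S calls and 68.7% of the MM1R calls, and of these 5179 (99.3%) moved in the same direction and 39 in opposite directions. Over 14215 genes, which are not independent replicates, the responses of the lines had a Pearson r of 0.75 and a Spearman rho of 0.77.

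The line difference itself passed the test for 592 genes, 4.16% of those tested. Of these, 453 had a higher response in MM1R (3.19%) and 139 a lower response (0.978%), and 3021 genes had an unadjusted p under 0.05. The median line difference of all genes was -0.0034 log2 with a median SE of 0.147, so the genes as a whole were centred near 0. Among the 453, 210 fell in both lines and fell less in MM1R, 109 rose in both and rose more in MM1R, 59 rose in MM1R without a call in MM1S, 50 fell in MM1S without a call in MM1R, and 25 fell in MM1S and rose in MM1R. Among the 139, 53 rose in MM1S without a call in MM1R, 33 rose in both and rose less in MM1R, 25 fell in MM1R without a call in MM1S, 14 fell in both and fell more in MM1R, and 14 rose in MM1S and fell in MM1R. The line difference and the response of each line share libraries, so these splits describe the calls and are not separate evidence. Most differences were small: the median size was 0.60 log2 among the higher and 0.49 among the lower genes, and 68 higher and 12 lower genes reached 1 log2. The counts depended on single libraries. Without MM1S TAK-981 replicate 1, 2292 genes were called, 1186 higher and 1106 lower, and without replicate 2 of that group 591 were called. Leaving out either library of MM1S vehicle gave 214 and 320 calls, of MM1R vehicle 259 and 209, and of MM1R TAK-981 200 and 284.

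**Figure D1:**
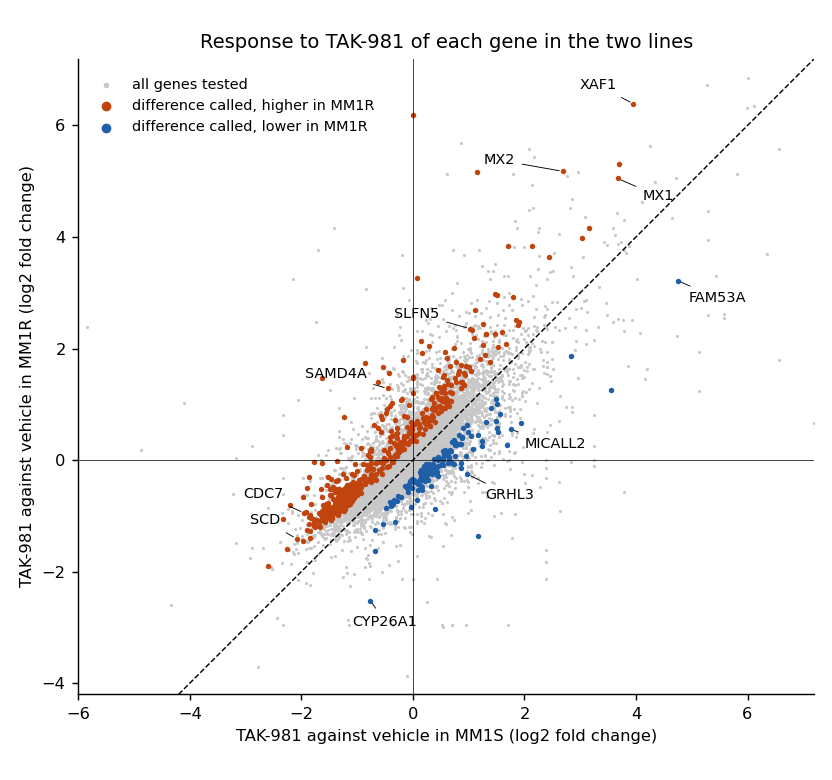
Log2 change from vehicle to TAK-981 in MM1S (horizontal axis) against MM1R (vertical axis), 1 point per gene, with the 453 genes of higher and the 139 of lower response in MM1R in colour and the dashed line marking equal responses. Most genes lie along the line, and 13 genes fall outside the axes.

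Genes of the interferon response and of the cell cycle were called mostly on the higher side, although 309 of the 453 higher genes were in no list. Of 154 tested genes in the lists for interferon signalling, sensors, effectors and antigen presentation, 31 had a higher response in MM1R and 0 a lower one, against 3.19% and 0.978% of all genes. Of 203 tested genes of DNA replication, mitosis and the clustered histones, 78 were higher and 1 was lower. The directions within the lines differed between these classes: 24 of the 31 rose in both lines and rose more in MM1R, and 77 of the 78 fell in both lines and fell less in MM1R. Of the 139 lower genes 128 were in no list. The share of all tested genes in no list is not given here, so neither this count nor the 309 is read as a trait of its side.

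**Figure D2:**
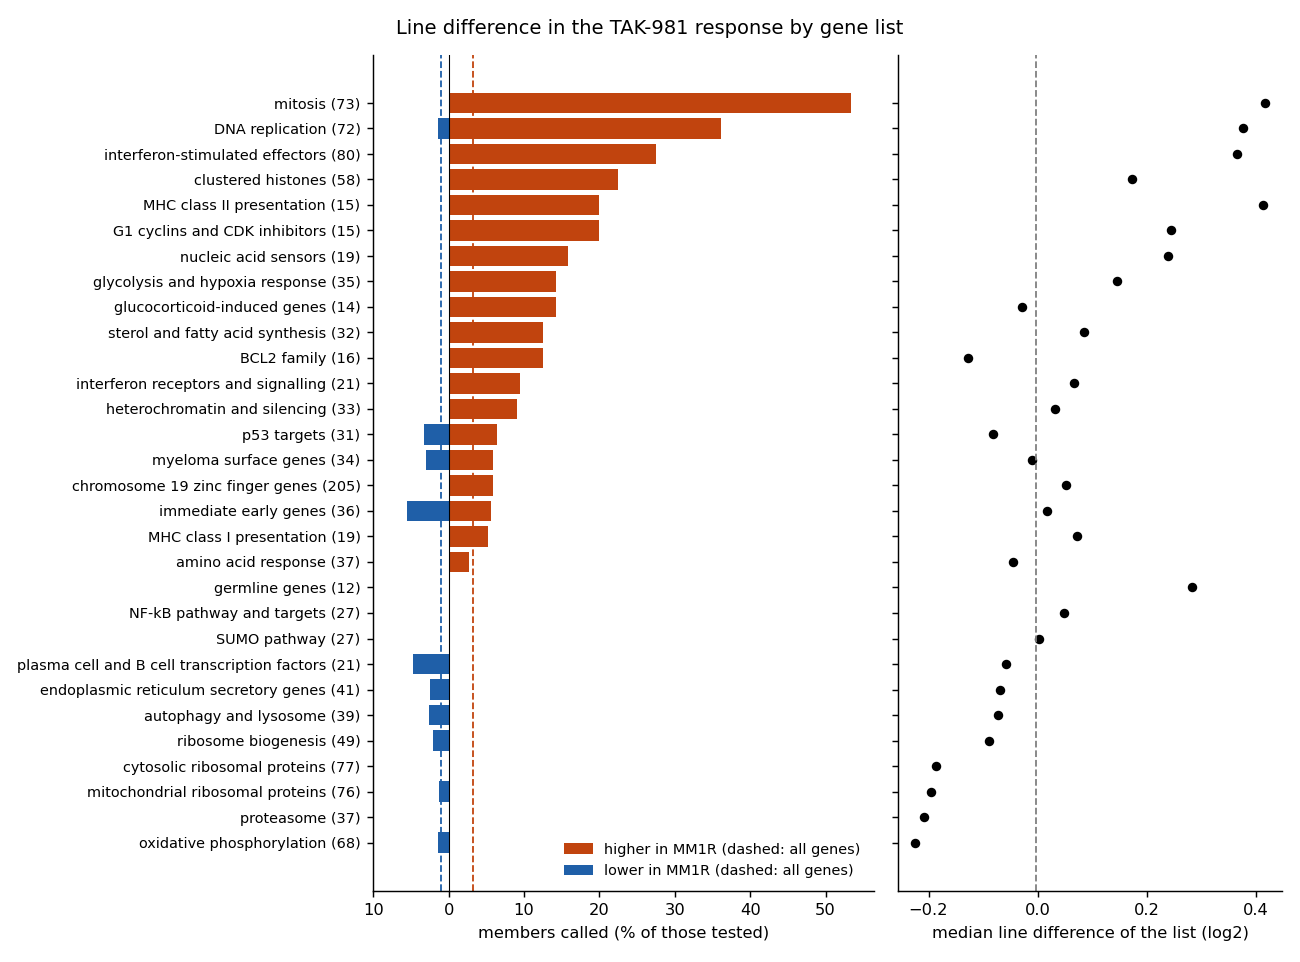
Left, percent of the tested members of each gene list called higher or lower in the line difference, with dashed lines at the percent over all genes tested (3.19% and 0.978%). Right, the median line difference (log2) of each list, where mitosis, MHC class II, DNA replication and interferon-stimulated effectors have medians from 0.37 to 0.42 and proteasome, oxidative phosphorylation and ribosomal protein lists lie near -0.20.

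The interferon-stimulated effectors, the proteins that block viral entry, replication and translation, were mostly higher after TAK-981 in both lines, and many rose more in MM1R. Of 80 tested members 69 rose and 2 fell in MM1S, against 25.2% and 23.7% of all genes. In MM1R 73 rose and 1 fell, against 25.8% and 27.6%. In the line difference 22 had a higher and 0 a lower response (27.5% against 3.19% of all genes), and 74 of 80 had a positive line difference against 49.5% of all genes. The median member stood at 1.83-fold of vehicle in MM1S and 2.72-fold in MM1R, and the median line difference was 0.37 log2 against -0.0034 for all genes. By library, the median member stood 0.96 and 0.87 log2 above vehicle in the MM1S TAK-981 duplicates and 1.47 and 1.37 above it in the MM1R duplicates. The number of members called ranged from 8, without MM1R TAK-981 replicate 1, to 33, without MM1S TAK-981 replicate 1, and the median from 0.31 to 0.44.

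MX1 encodes a dynamin-like GTPase that traps viral ribonucleoproteins (hg19, chr21:42792520-42831141). It stood at 22.5 and 22.5 CPM in MM1S vehicle, 292 and 281 in MM1S TAK-981, 14.5 and 14.1 in MM1R vehicle and 502 and 443 in MM1R TAK-981. MM1R started below MM1S and ended above it, with no overlap between groups, a 12.7-fold rise in MM1S and a 33.1-fold rise in MM1R (line difference 1.38 ± 0.10 SE, edgeR adjusted p = 4.03e-07). Its neighbour MX2, the related GTPase that restricts HIV (chr21:42733950-42780869), went from 7.24 and 6.51 to 48.8 and 40.04 CPM in MM1S and from 2.44 and 2.43 to 100.3 and 76.5 in MM1R. The rise was 6.44-fold in MM1S and 36.2-fold in MM1R (2.49 ± 0.24, adjusted p = 2.05e-05). XAF1, an interferon-induced partner of the apoptosis inhibitor XIAP (chr17:6658794-6678964), rose from 6.48 and 6.66 to 115 and 88.6 CPM in MM1S and from 1.45 and 1.65 to 141 and 120 in MM1R. As for MX1 and MX2, the vehicle level was lower in MM1R and the treated level was higher, with rises of 15.5-fold and 83.9-fold (2.44 ± 0.24, adjusted p = 3.23e-05).

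IFIT3, which binds IFIT1 on foreign RNA, started at like levels in both lines, 2.49 and 2.62 CPM in MM1S vehicle and 2.31 and 1.94 in MM1R vehicle. After TAK-981 it stood at 12.2 and 10.3 CPM in MM1S and 34.6 and 26.3 in MM1R (1.69 ± 0.26, adjusted p = 0.0012), and it overlaps LIPA. SLFN5, a member of the interferon-induced Schlafen family, rose 2.03-fold in MM1S and 5.12-fold in MM1R (1.33 ± 0.12, adjusted p = 4.73e-06). CEACAM1, an adhesion receptor in no interferon list, rose from 6.39 and 6.77 to 19.8 and 16.7 CPM in MM1S and from 2.44 and 2.52 to 20.4 and 18.8 in MM1R, so the treated levels of the lines lay close together (1.51 ± 0.18, adjusted p = 8.96e-05). CEACAM1 overlaps LIPE-AS1, and since the strand setting of the counting is not given in the sources used here, reads of overlapping genes cannot be told apart.

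Several further effectors were chosen after their values were seen. IFI27, a mitochondrial interferon-induced protein, stood at 0.705 and 0.461 CPM in MM1S vehicle, 1.35 and 1.29 in MM1S TAK-981, 0.248 and 0.124 in MM1R vehicle and 7.30 and 6.45 in MM1R TAK-981. It stood far higher in the MM1R TAK-981 libraries than in the other 6 (edgeR adjusted p = 0.000406), but its lowest library held 3 counts, so no fold is given. IFI6 rose 3.16 log2 in MM1S and 4.16 in MM1R (adjusted p = 0.0157), and TNFSF10, the death ligand TRAIL, rose 0.77 log2 in MM1S and 1.76 in MM1R (adjusted p = 0.00202). GBP1, a guanylate-binding protein, had a line difference of 0.84 log2 (adjusted p = 0.000378), and OAS1, which makes the signal for RNase L, of 0.51 (adjusted p = 0.00941). ISG15, a ubiquitin-like modifier, missed the threshold (0.77 ± 0.29, adjusted p = 0.144). IFI44L also missed it (adjusted p = 0.0518), with 0 counts in both MM1R vehicle libraries.

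The promoters of 4 called effectors are printed because each holds the core of the interferon response element, which was searched on both strands as GAAA, any 2 bases and GAAA again, in the 250 bases before a RefSeq start. The 4 had the smallest p of the line difference among called effectors with a match in a stretch that overlaps no GENCODE exon. Other called effectors, such as MX1, IFIT1 and IFIT3, also held the element and are not printed. The matches are in capitals with up to 50 bases on each side (RefSeq starts, GRCh38.p14, 5′ to 3′ on the strand of the gene).
IFI27, chr14:94110578-94110700, plus strand: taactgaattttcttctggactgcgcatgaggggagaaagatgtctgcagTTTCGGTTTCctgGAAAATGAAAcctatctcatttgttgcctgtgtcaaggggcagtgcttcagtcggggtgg
TNFSF10, chr3:172523558-172523667, minus strand: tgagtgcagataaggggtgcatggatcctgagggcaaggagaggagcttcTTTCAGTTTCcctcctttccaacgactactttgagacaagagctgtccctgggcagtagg
IFI6, chr1:27672226-27672398, minus strand: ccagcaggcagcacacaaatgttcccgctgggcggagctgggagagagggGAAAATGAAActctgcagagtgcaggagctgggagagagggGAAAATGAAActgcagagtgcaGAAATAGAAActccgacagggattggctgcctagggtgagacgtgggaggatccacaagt
LAP3, chr4:17576965-17577074, plus strand: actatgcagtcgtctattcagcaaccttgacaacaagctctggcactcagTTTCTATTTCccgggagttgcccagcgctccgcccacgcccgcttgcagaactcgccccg
IFI27 held 2 matches and IFI6 held 3, and TNFSF10 and LAP3, an aminopeptidase that trims peptides, held 1 each. LAP3 had a small line difference of 0.31 log2 (adjusted p = 0.0379). Of the 22 effectors called higher, 18 matched a promoter entry and 9 of these (50%) held the element, against 25 of 44 (56.8%) of the members that were not called. The share was 3.63% of the 11146 tested genes with an entry and 3.02% of all 35116 windows. A match is a description of the letters and not of a bound site.

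**Figure D3:**
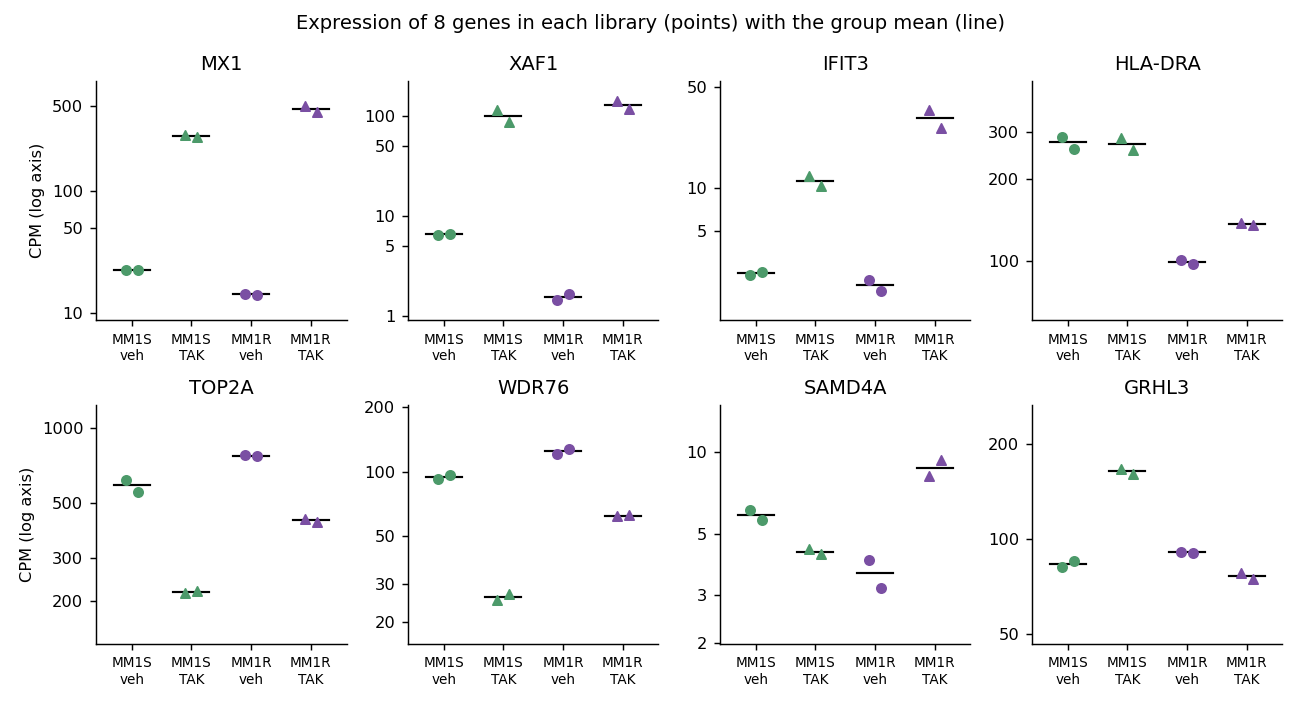
CPM on a log axis in each of the 8 libraries, 1 point per library, for MX1, XAF1, IFIT3, HLA-DRA, TOP2A, WDR76, SAMD4A and GRHL3 in MM1S and MM1R under vehicle and TAK-981. The MX1, XAF1 and IFIT3 points are highest in MM1R TAK-981, whereas GRHL3 is highest in MM1S TAK-981 and SAMD4A moves in opposite directions in the lines.

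Upstream of the effectors few genes were called. Among nucleic acid sensors, the proteins that detect viral or misplaced RNA and DNA, 3 of 19 had a higher response (15.8% against 3.19% of all genes) and 0 a lower one, with a median of 0.24 log2. DDX58, the RNA sensor RIG-I, rose from 13.3 and 12.7 to 38.1 and 33.8 CPM in MM1S and from 10.5 and 8.74 to 48.8 and 43.5 in MM1R (0.79 ± 0.14, adjusted p = 0.00328). AIM2, a cytosolic DNA sensor, rose 1.303-fold in MM1S and 2.04-fold in MM1R (0.65 ± 0.13, adjusted p = 0.00678). Among interferon receptors and signalling genes 2 of 21 were called higher (9.52%, against 3.19%) and 0 lower, with a median of 0.07 log2. JAK2, the kinase bound to several cytokine receptors, fell from 41.0 and 41.7 to 34.2 and 31.4 CPM in MM1S and rose from 32.5 and 33.4 to 40.6 and 40.7 in MM1R (0.64 ± 0.10, adjusted p = 0.00176). None of the 22 interferon ligand genes had enough reads to be tested, 17 were at 0 in all 8 libraries, and the highest count of any was 4, which does not show that no interferon was made.

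Of the genes of antigen presentation, few were called in class II or in class I, and the lists were not tested against each other. Of 15 tested MHC class II genes, which load and display peptides to helper T cells, 3 had a higher response (20%, against 3.19% of all genes) and 0 a lower one, with a median of 0.41 log2, and the count ranged from 1 to 7 when single libraries were left out. By library the median member moved by 0.005 and 0.23 log2 in the MM1S TAK-981 duplicates and by 0.42 and 0.50 in the MM1R duplicates. The level of class II genes stayed mostly lower in MM1R. In vehicle 11 of the 15 were called lower in MM1R and 0 higher, against 3213 and 3637 of all 14215 genes. After TAK-981 11 were lower and 1 higher, against 3017 and 3106. HLA-DRA, the alpha chain of HLA-DR, stood at 287 and 260 CPM in MM1S vehicle and 283 and 258 in MM1S TAK-981, and at 101 and 97.5 in MM1R vehicle and 138 and 136 in MM1R TAK-981. The MM1S groups overlapped and the MM1R groups did not, and MM1R stayed below MM1S (0.48 ± 0.09, adjusted p = 0.0054). HLA-DMA, a chaperone of peptide loading, had a line difference of 0.58 ± 0.13 (adjusted p = 0.0185). CIITA, the master activator of class II genes, stood at 56.9 and 57.2 CPM in MM1S vehicle and 37.5 and 46.4 in MM1S TAK-981, against 26.6 and 25.6, then 27.6 and 30.3 in MM1R (0.59 ± 0.14, adjusted p = 0.022). The call of HLA-DMA was lost without any 1 of 4 libraries and that of CIITA without any 1 of 6, with adjusted p up to 0.129 and 0.117. In class I, 1 of 19 members was called higher, which at 5.26% is near the 3.19% of all genes, and 0 lower, with a median of 0.07 log2. HLA-F, a non-classical heavy chain, rose 2.46-fold in MM1S and 3.67-fold in MM1R (0.58 ± 0.12, adjusted p = 0.011, up to 0.0745 without MM1S vehicle replicate 2, MM1R vehicle replicate 1 or MM1R TAK-981 replicate 2).

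Cell cycle genes fell with TAK-981 in both lines, and many fell less in MM1R. In bulk RNA, fewer cells of a type, here fewer cycling cells, and less RNA per cell cannot be told apart. Mitosis genes build the spindle, kinetochore and condensed chromosome. All 73 tested members fell in MM1S and 72 of 73 in MM1R, against 23.7% and 27.6% of all genes. In the line difference 39 of 73 had a higher response and 0 a lower one (53.4% against 3.19% of all genes called higher), and 72 of 73 had a positive line difference, against 49.5% of all genes. The median member stood at 0.449 of vehicle in MM1S and 0.590 in MM1R, with a median line difference of 0.42 log2. By library the median member stood at -1.19 and -1.14 log2 of vehicle in the MM1S TAK-981 duplicates and at -0.74 and -0.77 in the MM1R duplicates. In vehicle 58 of the 73 were already called higher in MM1R and 0 lower, against 3637 and 3213 of all 14215 genes. Leaving out single libraries gave 17 to 48 called members and a median of 0.38 to 0.47.

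TOP2A, the topoisomerase that untangles sister chromatids (hg19, chr17:38544773-38574202), stood at 621 and 555 CPM in MM1S vehicle, 216 and 221 in MM1S TAK-981, 779 and 773 in MM1R vehicle and 432 and 420 in MM1R TAK-981. No groups overlapped, and MM1R was above MM1S before and after treatment (0.56 ± 0.08, adjusted p = 0.000728). NCAPG, a condensin subunit, fell from 194 and 185 to 66.8 and 71.3 CPM in MM1S and from 239 and 240 to 133 and 129 in MM1R (0.59 ± 0.09, adjusted p = 0.000899). The kinase gene MELK had a line difference of 0.73 ± 0.10 (adjusted p = 0.000516), and PLK4, which starts centriole duplication, of 0.68 ± 0.10 (adjusted p = 0.000686). MKI67, the source of the Ki-67 antigen, fell by 1.34 log2 in MM1S and 0.81 in MM1R (adjusted p = 0.00373), and CDK1, the main mitotic kinase, fell by 1.497 and 1.01 (adjusted p = 0.012), both named after their values were seen.

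The promoters of TOP2A and KIF11, a spindle motor with a line difference of 0.45 log2 (adjusted p = 0.0023), are printed because they hold TTTGAA on either strand, the letters of the cell cycle homology region through which late cell cycle genes are repressed in resting cells. TOP2A and KIF11 had the smallest p of the line difference among called mitosis genes with a match in a stretch that overlaps no GENCODE exon. Capitals mark the matches (RefSeq starts, GRCh38.p14, 5′ to 3′ on the strand of the gene).
TOP2A, chr17:40417992-40418140, minus strand: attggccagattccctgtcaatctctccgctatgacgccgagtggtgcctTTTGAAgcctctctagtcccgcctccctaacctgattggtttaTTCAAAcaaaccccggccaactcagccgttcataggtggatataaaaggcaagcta
KIF11, chr10:92593052-92593129, plus strand: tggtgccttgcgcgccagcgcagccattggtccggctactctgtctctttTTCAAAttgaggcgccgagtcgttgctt
TOP2A held 2 matches and KIF11 held 1. Of the mitosis genes called higher, 35 matched a promoter entry and 20 of these (57.1%) held TTTGAA, against 12 of 27 (44.4%) of the members that were not called and 12.6% of all tested genes with an entry. So short a motif was also found in 13.3% of all RefSeq windows.

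DNA replication genes fell in both lines too, 71 of 72 in each, with 1 exception. Over all genes 23.7% fell in MM1S and 27.6% in MM1R. In vehicle 67 of the 72 were already called higher in MM1R and 1 lower, against 3637 and 3213 of all 14215 genes. Of the 72 tested members 26 had a higher response (36.1%, against 3.19% of all genes) and 1 a lower one, 67 had a positive line difference (93.1%, against 49.5%), and the median member stood at 0.373 of vehicle in MM1S and 0.506 in MM1R (median line difference 0.38 log2). Leaving out single libraries gave 13 to 38 members called higher and a median of 0.30 to 0.55. WDR76, a nuclear WD-repeat protein (hg19, chr15:44119112-44160617), stood at 92.1 and 96.4 CPM in MM1S vehicle, 25.3 and 26.9 in MM1S TAK-981, 121 and 128 in MM1R vehicle and 61.8 and 63.1 in MM1R TAK-981. It fell to 0.277 of vehicle in MM1S and 0.503 in MM1R (0.86 ± 0.09, adjusted p = 3.23e-05). CDC7, the kinase that fires replication origins, fell from 33.7 and 28.3 to 8.09 and 7.98 CPM in MM1S and from 45.3 and 44.6 to 24.1 and 22.6 in MM1R (1.00 ± 0.15, adjusted p = 0.000678). CLSPN, an adaptor of the replication checkpoint, had a line difference of 0.67 ± 0.08 (adjusted p = 0.000137), and BRCA1, a repair ubiquitin ligase that overlaps NBR2, of 0.64 ± 0.08 (adjusted p = 0.000212). Among helicase and licensing genes named after their values were seen, CDC6, CDC45, MCM10 and MCM4 had line differences of 0.58, 0.58, 0.59 and 0.51 log2.

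The exception was SLBP, which binds the stem-loop at the end of histone mRNAs. SLBP rose from 118 and 116 to 282 and 296 CPM in MM1S and from 151 and 151 to 246 and 237 in MM1R. It rose in both lines while the other 71 members fell, and rose less in MM1R (line difference -0.63 ± 0.09, adjusted p = 0.000553). E2F sites, TTTCGCGC or TTTGGCGC on either strand, were in the promoters of 2 of 20 replication genes called higher (10%), 9 of 40 others (22.5%) and 2.12% of all tested genes with an entry.

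Of 58 clustered histone genes, 52 fell in MM1S and 53 in MM1R, against 23.7% and 27.6% of all genes. In the line difference 13 had a higher response and 0 a lower one, with a median of 0.17 log2. The share called higher was 22.4% against 3.19% of all genes, and 39 members were positive (67.2%, against 49.5%). HIST1H2BJ, an H2B gene, fell to 0.350 of vehicle in MM1S and 0.575 in MM1R (0.72 ± 0.10, adjusted p = 0.00056). The histone genes are near-identical copies between which reads can be split wrongly, so single members are uncertain, and leaving out single libraries gave 3 to 15 called members. Of 15 G1 cyclins and CDK inhibitors 3 were called higher (20%) and 0 lower. CCND2, a D-type cyclin, fell to 0.595 of vehicle in MM1S and 0.808 in MM1R (0.44 ± 0.08, adjusted p = 0.00326). Its partner kinase CDK6 had a line difference of 0.57 ± 0.13 (adjusted p = 0.0167), and the inhibitor CDKN1A of 0.39 ± 0.10 (adjusted p = 0.0265), and both calls were lost without any 1 of 6 libraries, with adjusted p up to 0.0943 and 0.129.

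**Figure D4:**
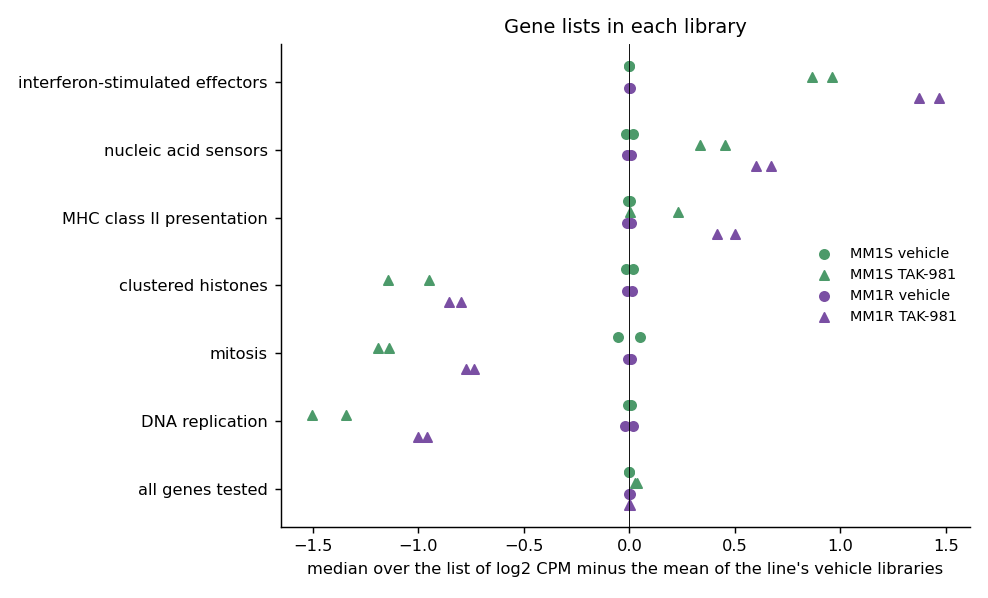
Median log2 change from the vehicle mean of the line in each vehicle and TAK-981 library, 1 point per library. Interferon, antigen presentation and cell cycle lists and all genes tested are shown in MM1S and MM1R. The TAK-981 points of the lines do not overlap for any list shown. They do not overlap for all genes tested either, which stand near 0 (0.029 and 0.035 in MM1S, 4.2e-05 and 0.0023 in MM1R).

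In 39 genes called in both lines the direction was opposite, and the line difference was called in each of them. SAMD4A, a translational repressor that binds RNA hairpins, fell from 6.16 and 5.64 to 4.41 and 4.22 CPM in MM1S and rose from 4.01 and 3.17 to 8.16 and 9.31 in MM1R (1.74 ± 0.21, adjusted p = 0.000148). TLE4, a Groucho co-repressor, fell to 0.816 of vehicle in MM1S and rose 1.498-fold in MM1R (0.88 ± 0.14, adjusted p = 0.00131). HRASLS2, a phospholipid-metabolising enzyme, PDE4D, a cAMP phosphodiesterase, and ADD2, a membrane skeleton protein, had line differences of 1.29, 1.37 and 0.67 log2 with the same pattern. In the other direction, GRHL3, an epithelial transcription factor (hg19, chr1:24645812-24690970), rose from 81.8 and 85.4 to 167 and 162 CPM in MM1S and fell from 91.3 and 90.1 to 77.8 and 74.4 in MM1R. Vehicle levels of GRHL3 were alike and treated levels were far apart (-1.23 ± 0.08, adjusted p = 2.73e-07). DERL3, which helps clear misfolded proteins from the endoplasmic reticulum, rose from 107 and 114 to 130 and 145 CPM in MM1S and fell from 198 and 199 to 142 and 146 in MM1R (-0.78 ± 0.09, adjusted p = 9.35e-05). LHX8, a homeobox factor, NDNF, a secreted protein, MCOLN1, a lysosomal calcium channel, and APEH, a serine peptidase, had line differences of -1.27, -0.52, -0.60 and -0.59 log2, and without MM1R TAK-981 replicate 1 the adjusted p rose to 0.0679 for LHX8 and 0.0514 for APEH. With the MM1R response taken from the combo and Dex libraries, PDE4D (edgeR adjusted p = 0.158) and MCOLN1 (edgeR adjusted p = 0.0672) lost their calls. GRHL3 overlaps STPG1, DERL3 overlaps SMARCB1 and PDE4D overlaps PART1.

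Other large differences had no common list. MLLT3, a reader of acylated histones in the elongation complex, stood at 36.8 and 36.5 CPM in MM1S vehicle and 36.6 and 32.9 in MM1S TAK-981, and rose from 29.0 and 27.3 to 56.3 and 55.9 in MM1R (1.07 ± 0.11, adjusted p = 2.05e-05). MACROD2, an ADP-ribose hydrolase, fell from 13.2 and 12.3 to 3.94 and 3.09 CPM in MM1S and stood at 6.62 and 6.10, then 4.94 and 5.32 in MM1R (1.56 ± 0.20, adjusted p = 0.000327). NOL4L rose 5.43-fold in MM1S and 12.4-fold in MM1R (1.19 ± 0.16, adjusted p = 0.000434). Among genes of lower response, CYP26A1, the enzyme that breaks down retinoic acid, fell from 38.3 and 33.2 to 17.1 and 25.1 CPM in MM1S and from 15.5 and 17.6 to 2.79 and 2.96 in MM1R (-1.75 ± 0.24, adjusted p = 0.000516). The other genes of the lower side rose in MM1S and rose less or were not called in MM1R: KRT15, a keratin, MICALL2, a cytoskeletal adaptor, CTSF, a lysosomal protease, SEMA3G, a guidance cue, UAP1L1 and FAM53A had line differences of -1.42, -1.20, -1.03, -1.29, -1.01 and -1.53 log2. SEMA3G and FAM53A lost their calls without MM1S vehicle replicate 1, MM1R vehicle replicate 2 or MM1R TAK-981 replicate 1, among others, with adjusted p up to 0.076 and 0.159.

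Immediate early, metabolic and survival genes had few calls per list, to be read against 3.19% of all genes called higher and 0.978% lower. ZFP36, which destabilises AU-rich mRNAs, rose from 132 and 142 to 196 and 206 CPM in MM1S and from 140 and 137 to 342 and 340 in MM1R (0.75 ± 0.09, adjusted p = 7.70e-05). The immediate early list of 36 had 2 higher (5.56%) and 2 lower members, among the latter SGK1, a kinase, at -0.61 ± 0.09 (adjusted p = 0.000652), and DUSP4, a MAP kinase phosphatase, at -0.58 ± 0.09 (adjusted p = 0.00114). Of 32 sterol and fatty acid genes 4 were higher (12.5%) and 0 lower: SCD, the fatty acid desaturase, fell from 876 and 882 to 201 and 213 CPM in MM1S and from 786 and 771 to 301 and 284 in MM1R (0.68 ± 0.09, adjusted p = 0.000516). Of 35 glycolysis and hypoxia genes 5 were higher (14.3%) and 0 lower, led by the mitophagy receptor BNIP3L (0.70 ± 0.12, adjusted p = 0.00173). Of 205 zinc finger genes of chromosome 19, 12 were higher (5.85%, near the share of all genes) and 0 lower, with ZNF506 rising 2.39-fold in MM1S and 5.45-fold in MM1R and ZNF208 3.48-fold and 7.63-fold, the latter not called without MM1R vehicle replicate 2 (adjusted p = 0.062). In the BCL2 family 2 of 16 were higher (12.5%) with a list median of -0.13 log2, BCL2 itself, the anti-apoptotic founder, at 0.37 ± 0.08 (adjusted p = 0.00923) and PMAIP1, the pro-apoptotic NOXA, at 0.90 ± 0.24 (adjusted p = 0.0418). The BCL2 call was lost without MM1S vehicle replicate 1, MM1R vehicle replicate 2 or MM1R TAK-981 replicate 1. The PMAIP1 call was lost without any 1 of 7 libraries. It was also lost in DESeq2, with only the libraries compared, and with the MM1R response from the combo and Dex libraries. Over the alternatives the line differences ranged from 0.33 to 0.42 for BCL2 and from 0.73 to 1.07 for PMAIP1.

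Among glucocorticoid-induced genes, 2 of 14 had a higher response to TAK-981 in MM1R without Dex in the medium (14.3%, against 3.19% of all genes). The list median was -0.03 log2, and 8 of 14 members had a negative line difference. TSC22D3, the glucocorticoid-induced leucine zipper GILZ, went from 38.3 and 44.4 to 49.7 and 58.3 CPM in MM1S and from 85.1 and 86.8 to 156 and 163 in MM1R (0.50 ± 0.12, adjusted p = 0.0284). KLF9, a Krüppel-like factor, had a line difference of 0.55 ± 0.13 (adjusted p = 0.0277), and leaving out most single libraries ended both calls, with adjusted p up to 0.153 for TSC22D3 and 0.133 for KLF9. NR3C1, the glucocorticoid receptor, did not pass the test (-0.16 ± 0.11, adjusted p = 0.433).

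Several lists had no called member in either direction or a shift below 0 with few calls. In the SUMO pathway 0 of 27 members were called in either direction, against 4.16% of all genes, with a median of 0.002 log2. By unadjusted p in edgeR 1 was higher and 1 lower, and DESeq2 called 0. The E1 subunit UBA2 stood at 181 and 171, then 131 and 117 CPM in MM1S and at 188 and 187, then 125 and 127 in MM1R (-0.06 ± 0.10, adjusted p = 0.754), and the other subunit, SAE1, was not called (-0.02 ± 0.09, adjusted p = 0.92). ULK1, the autophagy kinase, MYC, E2F1, CCND1, RRM2, RASD1 and CDKN1B were not called, with line differences from -0.31 to 0.56 log2 and adjusted p from 0.0639 for RRM2 to 0.996 for CDKN1B. RRM2 was called in 7 of the 16 alternatives, E2F1 in 2 and ULK1 in 1, with lowest adjusted p of 0.000298, 0.0125 and 0.0493. Proteasome, oxidative phosphorylation, mitochondrial ribosomal and cytosolic ribosomal protein genes had medians of -0.21, -0.22, -0.20 and -0.19 log2. Values were positive in 3 of 37, 7 of 68, 7 of 76 and 8 of 77 members, against 49.5% of all genes. The shift below 0 was absent with Dex present, where the medians were 0.037, 0.115, 0.015 and 0.124 log2. Of these lists only single members of oxidative phosphorylation (NDUFA1, -0.42) and of the mitochondrial ribosome (MRPL34, -0.49) were called, both lower. Both calls were lost when single libraries were left out, and that of NDUFA1 also with library size only or upper quartile scaling. Over the alternatives the line differences ranged from -0.50 to -0.31 for NDUFA1 and from -0.53 to -0.32 for MRPL34.

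The same line difference was taken between the combo and Dex libraries. These share no library with those above, and Dex was present throughout. Dex alone, against vehicle, changed 6017 genes in MM1S and 0 in MM1R (edgeR, adjusted p under 0.05). The starting level in MM1S thus differed from that without Dex, so this contrast is not a repeat of the first. The line difference with Dex was called for 1804 genes (12.7%), 1270 higher (8.93%) and 534 lower (3.76%). Of the 453 genes of higher response without Dex, 362 had the same sign with Dex, 229 of these were called so and 19 were called in the opposite direction. Of the 139 lower genes, 72 had the same sign, 20 were called so and 15 were called in the opposite direction. Over all 14215 genes the differences with and without Dex had a Pearson r of 0.10. Among the lists, 61 of 73 mitosis genes, 36 of 72 replication genes, 21 of 58 histones, 40 of 80 interferon-stimulated effectors and 8 of 15 class II genes were called higher with Dex, and 0, 3, 0, 1 and 0 lower. Also with Dex, 12 of 19 class I genes, 11 of 21 interferon receptor and signalling genes and 9 of 19 sensors were called higher and 0 lower. Other lists did not keep their direction. Of 35 glycolysis and hypoxia genes 0 were called higher with Dex and 4 lower, with a list median of -0.075 log2. Of 32 sterol and fatty acid genes 4 were called higher and 8 lower, with a list median of -0.042 log2. MX1 had a line difference of 1.16 ± 0.10 with Dex (adjusted p = 4.39e-07), XAF1 of 1.94 ± 0.24 (adjusted p = 2.23e-05) and MX2 of 0.39 ± 0.30 (adjusted p = 0.468).

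The difference between these line differences was called for 961 genes (6.76%). MX2 was among them (2.10 log2 lower with Dex, adjusted p = 0.0028): in MM1S it stood at 1.55 and 2.12 CPM under Dex and 43.1 and 45.0 under combo, so its Dex level was below that of vehicle. GRHL3 changed sign, from -1.23 without Dex to 0.89 with Dex, and stood at 305 and 302 CPM in MM1S Dex and 141 and 153 in MM1S combo. MLLT3 (1.07 and -0.70), MACROD2 (1.56 and -0.99), PDE4D (1.37 and -0.88), P4HA1, a collagen prolyl hydroxylase (0.66 and -1.03, the first with adjusted p up to 0.145 without single libraries), and SCD (0.68 and -0.34) also changed sign, as did SLBP (-0.63 and 0.37). CLSPN had a larger line difference with Dex (0.67 and 1.52, adjusted p of the difference = 0.00048), as did NCAPG (0.59 and 1.19, adjusted p = 0.00966). In MM1R the combo and Dex libraries gave values close to those of TAK-981 and vehicle, as for GRHL3 at 84.9 and 84.7 CPM under Dex and 74.8 and 77.4 under combo.

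**Figure D5:**
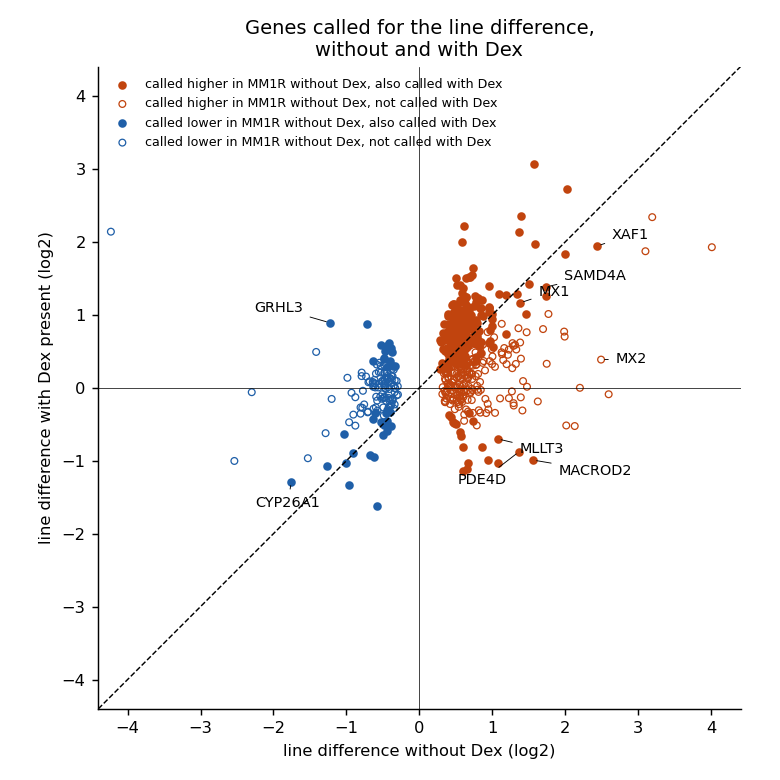
Line difference (log2) without Dex on the horizontal axis against the line difference with Dex on the vertical axis, 1 point per gene, with the genes called without Dex in colour. Of the 453 higher genes 362 lie above 0 on the vertical axis, and 72 of the 139 lower genes lie below it, with 2 genes outside the axes.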

How the data were processed

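RNA-seq of total RNA depleted of ribosomal RNA was measured in 16 libraries of MM1S and MM1R, 2 per group. The authors deposited raw counts of reads per gene, and per the submitters' processing notes the reads were handled with bcl2fastq 2.18.0.12, STAR 2.6.0 and HTSeq 0.6.0 on hg19, with edgeR 3.28.1 listed as well. The strand setting of the counting is not given in the sources used here. Small RNA data were not analysed here, and some items are not reported here.

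Groups were taken from the sample titles. All 16 libraries were fitted together in edgeR 4.0.16 (R 4.3.3) with 1 term per group, the default filterByExpr settings (minimum count 10, minimum total 15), TMM scaling and robust quasi-likelihood F tests with 8 residual degrees of freedom, all two-sided. The line difference was the contrast (MM1R TAK-981 minus vehicle) minus (MM1S TAK-981 minus vehicle), with Benjamini-Hochberg adjustment over 14215 genes and a threshold of 0.05. CPM are TMM-scaled. The 8 libraries compared held 18987739 to 24796539 counts, and counting error is only part of the spread.

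Named genes were up to 12 called genes per direction with the smallest p, a difference of at least 1 log2 and a mean log2 CPM of at least 2 (12 higher and 9 lower qualified), the first 4 called members of each list, up to 6 genes per direction that moved in opposite directions in the lines, and the genes the study follows. Genes named after their values were seen are said to be so. The members and lists were chosen with earlier results of these data known. Alternatives were DESeq2 1.42.0, other scalings, no filter, a replicate block, fewer libraries and each library left out in turn. The model was also run on simulated counts with known line differences, and the outcome is not reported here. Promoter windows were 250 bases before RefSeq starts (GRCh38.p14). Gene coordinates are those of the deposited table (hg19), and the printed promoter stretches overlap no exon of the GENCODE annotation.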

Additional observations from a re-analysis of the deposited data

Results flagged for a closer look

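Each value here was taken up because a difference between the lines, or between the presence and absence of Dex, was itself tested and passed (edgeR, adjusted p under 0.05). Groups of 2 libraries are too small for the check that looks for 1 sample far from its group. The TAK-981 response differed between the lines for 592 genes. The line difference itself differed with and without Dex for 961 genes.

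Of the 39 genes called in both lines with opposite directions, 12 were taken up, 6 in each direction with the smallest p. The line differences were 1.74 log2 for SAMD4A, 0.88 for TLE4, 0.64 for JAK2, 1.29 for HRASLS2, 0.67 for ADD2 and 1.37 for PDE4D, which rose in MM1R and fell in MM1S. They were -1.23 for GRHL3, -0.78 for DERL3, -0.52 for NDNF, -1.27 for LHX8, -0.60 for MCOLN1 and -0.59 for APEH, which fell in MM1R and rose in MM1S.

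With Dex, 19 genes of the higher and 15 of the lower side were called with the opposite sign, and 9 of the named genes were among them. The value without Dex minus the value with Dex was 1.77 log2 for MLLT3, 2.55 for MACROD2, 1.02 for SCD, 1.69 for P4HA1 and 2.24 for PDE4D. It was -2.12 for GRHL3, -0.996 for SLBP, -1.02 for ETS1 and -0.73 for ITGA6. The line differences of ETS1 and ITGA6 without Dex were each lost without any 1 of 4 libraries, with adjusted p up to 0.077 and 0.0845.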

How the results depend on the processing

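No named gene with a called line difference changed its direction under any of the 16 alternatives, and RLE scaling ended 0 calls among 96 named genes, DESeq2 ended 2 and leaving out MM1R vehicle replicate 2 ended 30. With a size of at least 1 log2 as well, the line difference was called for 80 genes (68 higher, 12 lower) and 331 with Dex (228 and 103), and the responses for 1412 in MM1S and 1369 in MM1R. Without a filter on low counts 1313 line differences were called (832 higher, 481 lower). With the MM1R response taken from the combo and Dex libraries 385 were called and 59 were lower. That alternative ended 21 calls among the 96 named genes, including those of CIITA, CDK6, P4HA1, HLA-DMA and ZNF208. The 96 named genes also hold some without a called line difference, such as MYC and NR3C1. With a replicate block the calls were 2061 (1114 higher, 947 lower), and with Dex 2858, of which 974 lower. Deviations of same-numbered libraries correlated over 0.1 in 4 of 28 pairs of groups (range -0.014 to 0.26). These were MM1S TAK-981 with MM1S Dex (0.26) and MM1S combo (0.14), and MM1R Dex with MM1S Dex (0.19) and MM1S combo (0.12). Vehicle and TAK-981 correlated at 0.06 in MM1S and -0.01 in MM1R. Not every pair was over 0.1, so the numbers were not taken to pair the samples. DESeq2 called 608 (2756 adjusted p not given), RLE 648, library size 704, upper quartile 672 and the 8 libraries alone 485. Leaving out 1 library at a time gave 200 to 2292 calls (169 to 1186 higher, 31 to 1106 lower), and with Dex 1161 to 2159 (839 to 1471 higher, 308 to 688 lower). The cause of these moves was not tested. With 2 libraries per group, small differences were not detectable, and low counts limit genes such as IFI27.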
